A study of Citrus trifoliata with 2 samples.

Results

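The unigenes described here are the redox enzymes of trifoliate orange buds that work with glutathione, thioredoxin or ascorbate, or that make or remove superoxide and hydrogen peroxide. They were chosen by a rule on names alone, set with earlier results of these data known. A unigene, that is, an assembled transcript model, was a member when the Swiss-Prot protein most similar to it came from a flowering plant and had a name containing glutathione, thioredoxin, glutaredoxin, peroxiredoxin, catalase, superoxide dismutase, L-ascorbate, dehydroascorbate or respiratory burst oxidase. This gave 171 of the 35775 unigenes in the deposited table, and the rule uses no measured value.

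RNA sequencing was carried out on trifoliate orange (Citrus trifoliata), a hardy, thorny relative of oranges on which other citrus is grafted. One library (replicate 1) came from the mutant, labelled precocious trifoliate orange, and the other from its wild type, labelled normal trifoliate orange. Both were made from untreated trees 2 years old. The material of both was the terminal bud with the next 5 buds below it on spring shoots, taken after self-pruning, when flowers are initiated. The series sets the mutant against its wild type. Neither the number of trees behind each library nor the mutated gene is stated in the labels, so the comparison is of a pair of libraries and has no replicate check. No p-value is given. Every interval below is an exact 95% counting interval (Clopper-Pearson), which covers the sampling of reads only and not the spread between trees, buds or preparations.

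Superoxide is made at the plasma membrane by respiratory burst oxidases and turned into hydrogen peroxide by superoxide dismutases. Catalases and ascorbate peroxidases remove the peroxide. The ascorbate that is oxidised on the way is regenerated by monodehydroascorbate and dehydroascorbate reductases, the second of which draws on glutathione. Peroxiredoxins and plant glutathione peroxidases take their electrons mostly from thioredoxins and glutaredoxins, small proteins that also reduce disulfide bonds in other proteins. In buds these systems are best known for their work around dormancy, growth and stress, and plant-specific glutaredoxins of the CC type are known from Arabidopsis for their part in anther and petal formation.

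The libraries held 10.0371 M reads in the mutant and 9.99503 M in the wild type. Levels are given in RPKM, reads per kilobase of unigene and per M reads of the library (M for mega), which allows levels of different genes to be compared. A difference is given as the log2 ratio of mutant to wild type after adding 1 to each RPKM, and a unigene was kept when it reached 1 RPKM in at least 1 library, which left 34255 in all and 170 of the 171 members. The member set aside, Unigene32717, had 2 reads in the mutant and 3 in the wild type. The median log2 ratio of all kept unigenes was 0.05. Of the bud markers, SHOOT MERISTEMLESS had 137 reads in the mutant and 171 in the wild type over 2 unigenes, while no best hit was named KNAT1, KNAT2 or AINTEGUMENTA. The name WUSCHEL found 4 unigenes, all hits to WUSCHEL-related homeobox proteins and none to WUSCHEL itself. They had 1525 reads in the mutant and 1320 in the wild type. CLAVATA1 was the best hit of 18 unigenes and CUP-SHAPED COTYLEDON that of 4. Over the 26 kept unigenes of this bud and meristem list the summed RPKM was 347 in the mutant and 306 in the wild type. Of these, 1 was at least 2-fold higher and 3 lower, where 8.61% of all kept unigenes were higher and 5.31% lower. The higher one, Unigene23543, is in the second range of unigene numbers described below, where 29.3% of all unigenes were 2-fold higher. The 3 lower ones (Unigene28699, Unigene32269 and Unigene33405) are in the third range, where 23% of all unigenes were 2-fold lower. The 44 markers of green leaf mesophyll summed to 17249 RPKM in the mutant and 18605 RPKM in the wild type, with 0 past 2-fold. The 8 xylem markers summed to 203 RPKM in the mutant and 87.3 RPKM in the wild type, with 1 higher and 3 lower. Of this, Unigene5337 alone (a xylem cysteine proteinase) had 177 RPKM in the mutant and 58.8 RPKM in the wild type, and the other 7 summed to 26.5 RPKM and 28.5 RPKM. Unigene5337, the higher one, is in the first range of numbers, where 1.82% of all unigenes were 2-fold higher. The 3 lower xylem markers (Unigene31650, Unigene32725 and Unigene35058) are in the third range. The part of the numbering in these marker counts was not tested. The 10 phloem markers summed to 234 RPKM in the mutant and 173 RPKM in the wild type, with 0 past 2-fold. The part of these marker differences in the redox results was not tested, and fewer cells of a type cannot be told apart from less RNA per cell.

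The redox enzymes as a group were abundant, and their summed reads and median log2 ratio differed little between mutant and wild type. The median member stood at 78.7 RPKM in the mutant and 73.8 RPKM in the wild type, against 6.54 RPKM and 5.93 RPKM for the median of all kept unigenes in the same libraries. Together they took 158473 reads (1.58%) of the mutant library and 160873 reads (1.61%) of the wild-type library, a mutant over wild-type fold of 0.981 (0.974 to 0.988). Their median log2 ratio was 0.0057, with 88 positive and 82 negative values. Scaling the libraries to a trimmed mean of the log2 ratios, which lowers each mutant level by 0.07 on the log2 scale, gave 65 positive and 105 negative values and a median of -0.06. In the deposited scaling 79.4% lay within 0.5 of 0, against 63.3% of all kept unigenes, a comparison not matched for level.

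Past 2-fold, 12 members were higher in the mutant (7.06%), against 8.61% of all kept unigenes, and 6 were lower (3.53%), against 5.31%. These shares are not matched for level either, and the counts by level are given below. On the scale with 1 added, no member reached 4-fold either way, where 0.727% of all kept unigenes were higher and 0.403% lower. By raw reads 4 members were past 4-fold, the largest of them by read number Unigene24207 with 42 reads in the mutant and 10 in the wild type. The counting interval of the fold lay above 1 for 41 members (24.1%), against 19.8% of all kept unigenes, and below 1 for 40 (23.5%), against 14.4%. Deeper unigenes have narrower intervals, and the members were sequenced more deeply than the rest, with at least 100 reads over both libraries for 147 of them. Of the 18 members past 2-fold, 12 had at least 50 reads in all. Superoxide dismutase, the ascorbate oxidase family and glutaredoxins held the larger of these differences, while 8 of the 15 families, with 70 members, held none past 2-fold.

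**Figure D1:**
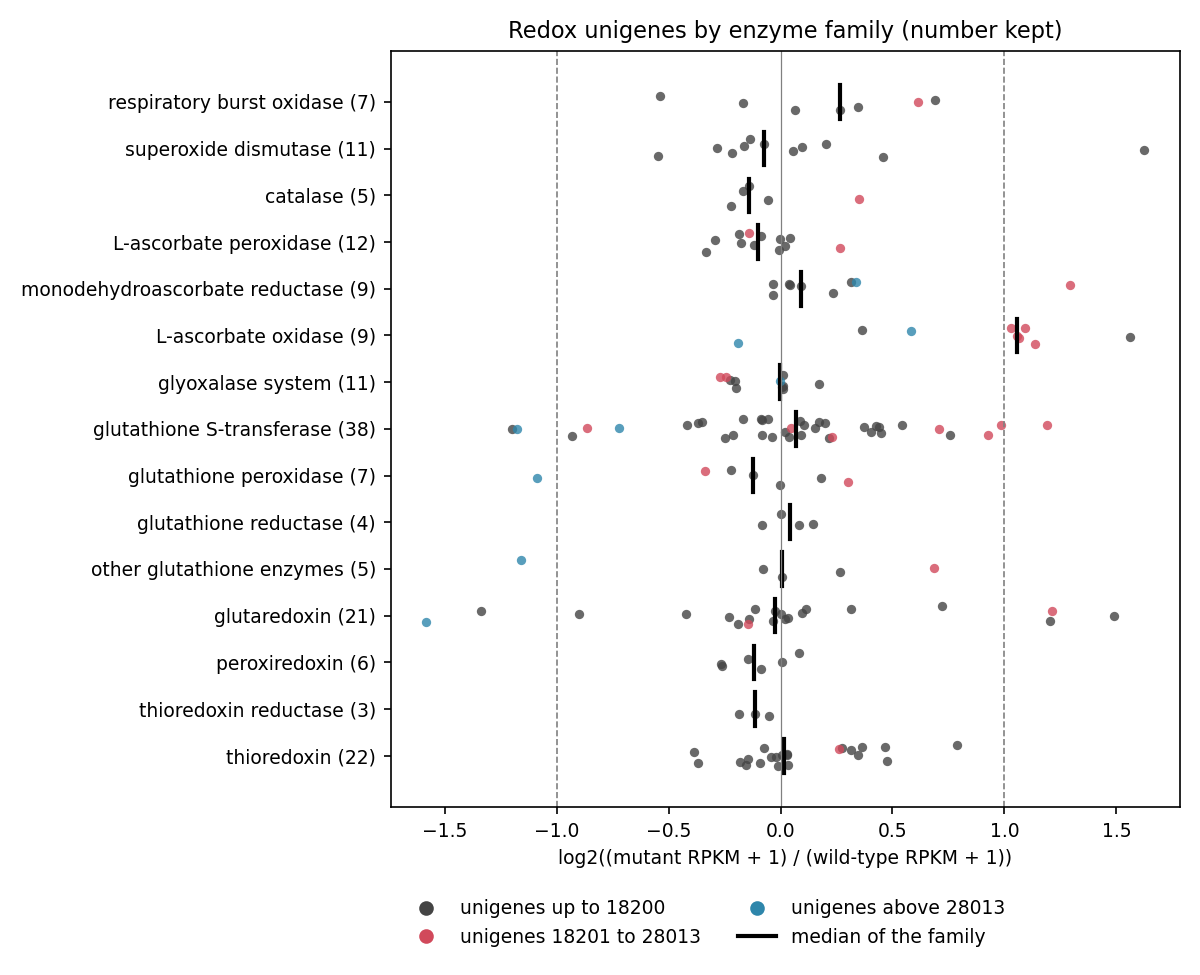
Each point is 1 kept redox unigene, placed by its log2 ratio of mutant over wild-type RPKM (each plus 1) within its enzyme family, with the number kept in brackets; the black bar is the family median, dashed lines mark 2-fold and colours give the range of unigene numbers. Most families sit around 0, and the ascorbate oxidase family has a median of 1.05.

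The size of the differences followed the level of the unigene. Of the 69 members with a mean of at least 100 RPKM, 1 was past 2-fold, where 0.837% of all kept unigenes at that level were. Another 69 lay between 10 and 100 RPKM, and 3 of them were past 2-fold, beside 1.85% of all unigenes there. Among the 32 members under 10 RPKM there were 14 past 2-fold, beside 22.7% of all. At each of these levels the members' share past 2-fold was thus above that of all kept unigenes, on few members. The 14 members over 500 RPKM, which include the main catalases, the cytosolic ascorbate peroxidase and the leading glutathione peroxidase, had no log2 ratio beyond 0.34 in size.

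**Figure D2:**
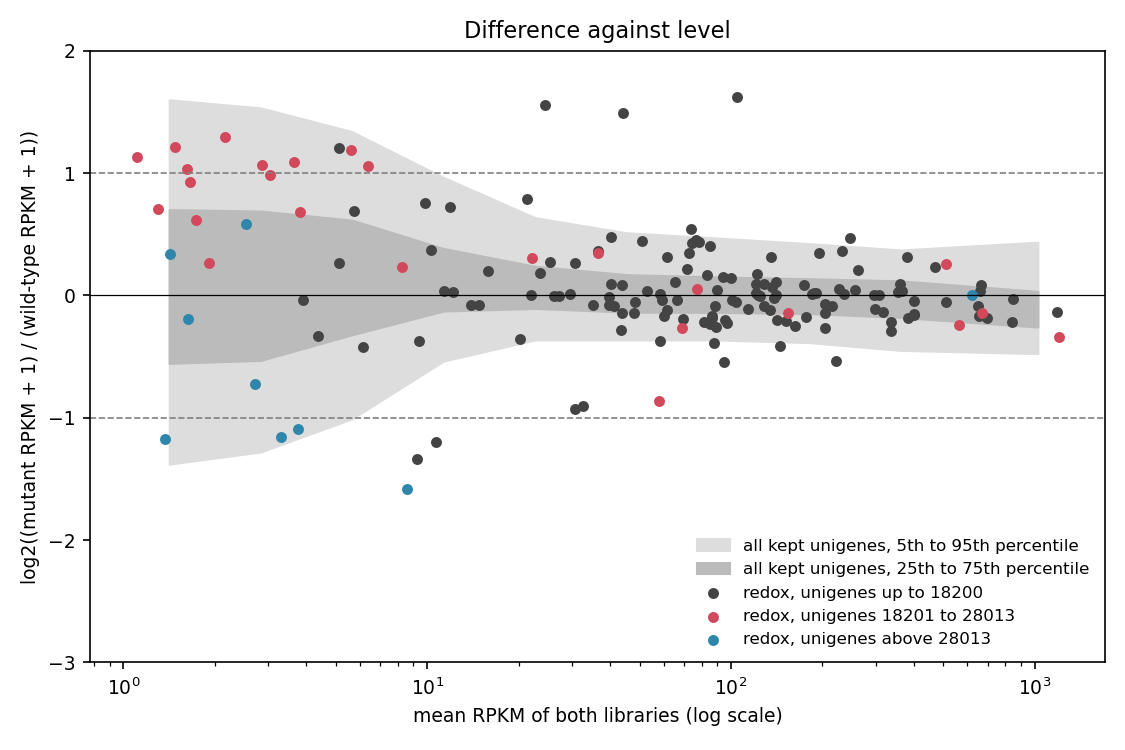
Each point is 1 kept redox unigene, with its mean RPKM over both libraries on a log axis and its log2 ratio of mutant over wild type on the vertical axis; grey bands hold the middle of all kept unigenes at the same level. The points above 100 RPKM lie close to 0 with 1 exception, Unigene11883 (a Cu-Zn superoxide dismutase), at 1.62.

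The differences also followed the numbers that the unigenes carry. Unigene length falls sharply at several numbers, and between Unigene18201 and Unigene28013 the median log2 ratio of all kept unigenes was 0.66, while above Unigene28013 it was -0.55 and up to Unigene18200 it was 0.02. Of the 136 members in the first range, 4 were 2-fold higher (2.94%), against 1.82% of all unigenes there, and 2 were lower (1.47%), against 0.544%. Of the 25 in the second range, 8 were higher (32.0%), against 29.3%, and 0 lower, against 0.298%. Of the 9 kept in the third range, 0 were higher, against 0.817%, and 4 were lower (44.4%), against 23% of all unigenes there. In the second range the members' median was 0.62, close to that of all unigenes with such numbers. The summed reads there differed, with a fold of 0.915 (0.890 to 0.939) for the members and 1.18 (1.18 to 1.19) for all unigenes. Intervals lay below 1 for 20% of the members of that range and for 121 of all its 8714 unigenes. What the numbering stands for is not stated in the labels or the table. The part of the numbering in the results on these members was not tested, so a member from the second or the third range is named as such below. Members without such a remark have numbers up to 18200.

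**Figure D3:**
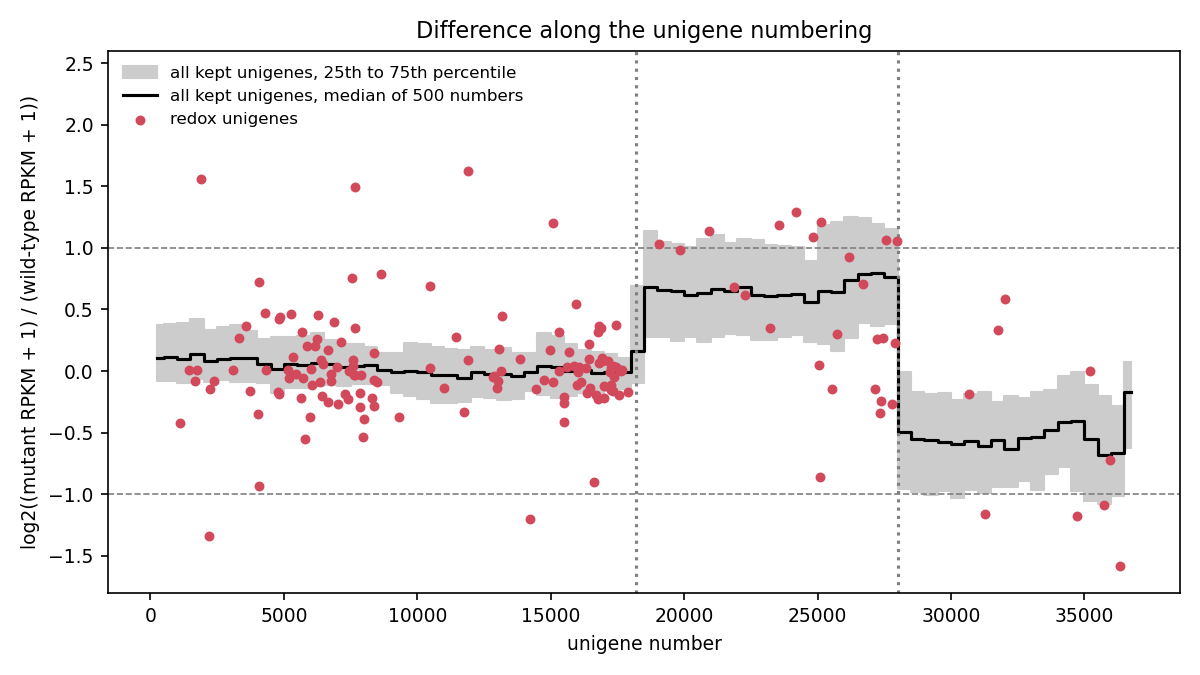
Unigene number is on the horizontal axis and the log2 ratio of mutant over wild type on the vertical axis; red points are redox unigenes, the black line is the median and the grey band the middle of all kept unigenes in steps of 500 numbers, and dotted lines mark numbers 18200 and 28013. The redox unigenes of the second range lie mostly above 0 and those of the third mostly below, as do all unigenes with such numbers.

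Respiratory burst oxidases are the NADPH oxidases that release superoxide outside the cell. As judged by intervals that exclude 1, 2 members were lower in the mutant, the most abundant one and Unigene17903, and 2 were higher. The intervals of 3 more, Unigene6254, Unigene16793 and Unigene22267, included 1. Unigene7951, most similar to protein E of Arabidopsis, had 181 RPKM in the mutant and 262 RPKM in the wild type (1535 and 2222 reads), which is 1.45-fold lower (1.36 to 1.55). Unigene10493, most similar to protein F, an Arabidopsis oxidase of stress and guard cell signalling, had 7.30 RPKM in the mutant and 4.15 RPKM in the wild type (159 and 90 reads), 1.76-fold higher (1.35 to 2.30). The intervals of both exclude 1 and point in opposite directions. The 3 unigenes with protein C hits were mixed. Unigene7660 had 81.6 RPKM in the mutant and 64.0 RPKM in the wild type, Unigene16793 had 140 RPKM and 134 RPKM, and Unigene17903 had 56.8 RPKM and 63.9 RPKM, in that order. Protein C of Arabidopsis, the best hit of Unigene7660, is the oxidase needed for root hair growth. The best hit of Unigene16793 and Unigene17903 is a potato protein with the same letter, and that role is not carried over to them. Because protein E carried the most reads, the family's summed reads were lower in the mutant (4509 against 5097, fold 0.881, 0.846 to 0.917) although its median log2 ratio was 0.26, and none of its 7 kept members passed 2-fold.

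Of the 11 superoxide dismutase unigenes, 1 stood apart. Unigene11883, most similar to Cu-Zn superoxide dismutase 1 of ice plant at an E-value of 1e-23, had 158 RPKM in the mutant and 50.8 RPKM in the wild type, from 1084 and 346 reads. It was 3.12-fold higher in the mutant (2.76 to 3.53), and it was the only member above 100 RPKM to pass 2-fold. The other copper-zinc unigenes did not share this. Unigene5798, most similar to a pea enzyme, had 77.1 RPKM in the mutant and 113 RPKM in the wild type (264 and 386 reads), 1.47-fold lower (1.25 to 1.72), and Unigene6294 had 89.0 RPKM in the mutant and 64.6 RPKM in the wild type. Unigene6465, the chloroplast form and the copper-zinc unigene with the highest level, had 232 RPKM in the mutant and 223 RPKM in the wild type. The mitochondrial manganese form, Unigene17325, was the most abundant of the family, with 378 RPKM in the mutant and 423 RPKM in the wild type, 1.12-fold lower (1.08 to 1.17). The 4 iron forms, which are chloroplast enzymes, summed to 3811 reads in the mutant and 3885 in the wild type. Near-identical copies may share reads in such a family, and how the authors counted them is not stated in the labels or the table.

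Catalases, which break down hydrogen peroxide in peroxisomes, were among the most abundant unigenes of all and slightly lower in the mutant, with a median log2 ratio of -0.14. The 225 kept unigenes of any kind with a mean of at least 500 RPKM had a median of -0.13. Unigene10993, most similar to Arabidopsis catalase-3, had 1131 RPKM in the mutant and 1245 RPKM in the wild type (6049 and 6632 reads), 1.10-fold lower (1.06 to 1.14). Unigene5647, most similar to a tobacco-relative catalase isozyme 3, had 775 RPKM in the mutant and 904 RPKM in the wild type. Unigene3714 had 617 RPKM and 692 RPKM, and Unigene5176 had 502 RPKM and 521 RPKM, mutant before wild type in each case. The values of these 4 were lower in the mutant, with the interval of Unigene5176 including 1 (0.902 to 1.03), and the exception was Unigene23203 of the second range, with 40.9 RPKM in the mutant and 31.9 RPKM in the wild type (139 and 108 reads), whose interval includes 1 (0.990 to 1.66). Summed over the family the reads were 14207 in the mutant and 15657 in the wild type, 1.11-fold lower (1.08 to 1.13), with 0 of 5 past 2-fold.

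The ascorbate peroxidases, which use ascorbate to reduce hydrogen peroxide, had negative log2 ratios in 9 of 12 unigenes. Of all 34255 kept unigenes 15819 were negative. With the trimmed mean scaling, which lowers every mutant level, 11 of the 12 were negative. The intervals of 3 lay below 1, as did those of 14.4% of all kept unigenes. The median log2 ratio of all kept unigenes was -0.0084 at 128 to 256 RPKM, -0.036 at 256 to 512 RPKM and -0.14 at 512 to 2048 RPKM. The most abundant, the cytosolic Unigene7276, had 654 RPKM in the mutant and 743 RPKM in the wild type (4067 and 4603 reads), 1.14-fold lower (1.09 to 1.19). Unigene7848, most similar to the peroxisomal peroxidase 3 of Arabidopsis, had 302 RPKM in the mutant and 371 RPKM in the wild type, 1.23-fold lower (1.16 to 1.29). A minor unigene with the same best hit, Unigene11756, had 28 reads in the mutant and 37 in the wild type, too few to separate them (1.33-fold lower, 0.790 to 2.25). Another with that hit, Unigene15864, had 260 RPKM in the mutant and 253 RPKM in the wild type, so unigenes sharing a best hit did not all point one way. The other cytosolic unigene, Unigene8496, had 39.8 RPKM in the mutant and 42.3 RPKM in the wild type. The thylakoid form, Unigene6005, had 189 RPKM in the mutant and 187 RPKM in the wild type. The family summed to 12973 reads in the mutant and 14279 in the wild type (fold 0.905, 0.883 to 0.927), and 0 of 12 passed 2-fold.

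The reductases that regenerate ascorbate did not follow the peroxidases. Among the monodehydroascorbate reductases, which reduce the ascorbate radical with NAD(P)H, Unigene7137 was the most abundant, with 506 RPKM in the mutant and 430 RPKM in the wild type (2941 and 2487 reads), 1.18-fold higher (1.12 to 1.24). Unigene15300 had 420 RPKM in the mutant and 337 RPKM in the wild type, 1.25-fold higher (1.16 to 1.34). Neither passed 2-fold. The remaining abundant one, Unigene7596, had 370 RPKM in the mutant and 360 RPKM in the wild type, and the pair named chloroplastic summed to 1991 reads in the mutant and 1922 in the wild type. Over the 9 members the reads were 10585 in the mutant and 9612 in the wild type (fold 1.10, 1.07 to 1.13). Log2 ratios were positive in 7 and negative in 2, with a median of 0.09. With the trimmed mean scaling they were positive in 5 and negative in 4, with a median of 0.02. The family also holds hits to nectarin-3, a tobacco nectar protein with this activity, and 1 of them was the only member of the family past 2-fold. Unigene24207, from the second range, had 3.50 RPKM in the mutant and 0.836 RPKM in the wild type (42 and 10 reads), 4.18-fold higher by reads (2.07 to 9.35). The other unigene with this hit, from the third range, Unigene31746, had 18 reads in the mutant and 12 in the wild type.

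No best hit carried the plain name dehydroascorbate reductase, but 2 unigenes matched DHAR1 of Arabidopsis, a glutathione-dependent dehydroascorbate reductase that Swiss-Prot lists as a glutathione S-transferase. Unigene7576 had 371 RPKM in the mutant and 348 RPKM in the wild type (3899 and 3640 reads), 1.07-fold higher (1.02 to 1.12). Unigene6667 had 149 RPKM in the mutant and 177 RPKM in the wild type, 1.19-fold lower (1.11 to 1.28). The pair pointed in opposite directions and summed to 5327 reads in the mutant and 5331 in the wild type.

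The family named for ascorbate oxidase, a copper enzyme of the cell wall that oxidises ascorbate, had the highest median of all families, 1.05 on the log2 scale, with 6 of 9 members at least 2-fold higher in the mutant and 0 lower, where 8.61% of all kept unigenes were higher and 5.31% lower. Of the 6, 5 were in the second range of numbers, where 29.3% of all unigenes were 2-fold higher, and 1 was in the first. Most of it consists of 7 hits to proteins called L-ascorbate oxidase homolog, multicopper oxidases first described from pollen of rapeseed and tobacco, for which the name does not show ascorbate oxidase activity. Unigene1899 of this kind had 36.9 RPKM in the mutant and 11.9 RPKM in the wild type, from 744 and 238 reads, and was 3.11-fold higher (2.69 to 3.62). The most abundant, Unigene3587, had 41.3 RPKM in the mutant and 31.8 RPKM in the wild type (963 and 739 reads), 1.30-fold higher (1.18 to 1.43). Both belong to the first range, where the median of all unigenes was 0.02. Unigene27996 of the second range had 8.96 RPKM in the mutant and 3.79 RPKM in the wild type (166 and 70 reads), 2.36-fold higher (1.78 to 3.17), and Unigene32041 of the third range had 3.23 RPKM in the mutant and 1.83 RPKM in the wild type. All 7 homologs had positive log2 ratios, and the intervals of 5 lay above 1. Of all kept unigenes, 53.8% had positive log2 ratios and 19.8% had intervals above 1. In the second range 7539 of all 8714 kept unigenes were positive, and the intervals of 2724 lay above 1. Those with the fewest reads come from the second range. Unigene27570 had 17 reads in the mutant and 6 in the wild type (interval 1.06 to 8.74). The intervals of Unigene19068 (7 and 2 reads) and Unigene20929 (6 and 1) include 1. The homologs summed to 1967 reads in the mutant and 1092 in the wild type (fold 1.79, 1.66 to 1.93).

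Of the ascorbate oxidases proper, both with a tobacco best hit, Unigene24842 of the second range had 5.33 RPKM in the mutant and 1.97 RPKM in the wild type (95 and 35 reads), 2.70-fold higher (1.82 to 4.10). Unigene30668 of the third range had 1.46 RPKM in the mutant and 1.80 RPKM in the wild type (26 and 32 reads), with an interval that includes 1. The pair summed to 121 reads in the mutant and 67 in the wild type. Summed over its 6 unigenes, the rapeseed homolog entry had 96.5 RPKM in the mutant and 51.1 RPKM in the wild type, a log2 ratio of 0.90. Summed likewise, the tobacco ascorbate oxidase entry had 6.78 RPKM in the mutant and 3.77 RPKM in the wild type, a log2 ratio of 0.71. Neither sum passed 2-fold, and the family's 1 entry that did was the single Unigene19068, whose interval includes 1.

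Enzymes that make or recycle glutathione differed by less than 2-fold. Glutathione synthetase, which completes the tripeptide, was represented by Unigene3330, with 33.5 RPKM in the mutant and 27.7 RPKM in the wild type, 1.21-fold higher (1.09 to 1.35). The 4 glutathione reductase unigenes, which return oxidised glutathione to its reduced form, lay between 86.1 and 180 RPKM in the mutant and between 91.3 and 169 RPKM in the wild type. Cytosolic Unigene16926 was highest, with 180 RPKM in the mutant and 169 RPKM in the wild type, and its interval includes 1 (0.982 to 1.15). The other cytosolic unigene, Unigene8395, had 105 RPKM in the mutant and 94.98 RPKM in the wild type, 1.11-fold higher (1.02 to 1.21). None of the 4 passed 2-fold, and the sum was 5035 reads in the mutant and 4921 in the wild type.

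Of the remaining glutathione enzymes, S-formylglutathione hydrolase (Unigene17583), which acts in formaldehyde removal, had 235 RPKM in the mutant and 234 RPKM in the wild type (2767 and 2739 reads). Phytochelatin synthase, listed in Swiss-Prot as glutathione gamma-glutamylcysteinyltransferase, joins glutathione into metal-binding chains. Of the 2 unigenes with phytochelatin synthase 3 of Lotus as best hit, Unigene21866 of the second range had 4.93 RPKM in the mutant and 2.69 RPKM in the wild type (81 and 44 reads). Unigene31263 of the third range had 1.66 RPKM in the mutant and 4.93 RPKM in the wild type (27 and 80 reads). The first was 1.83-fold higher (1.26 to 2.71) and the second 2.98-fold lower (1.90 to 4.79). Their sum, 108 reads in the mutant and 124 in the wild type, gave a fold of 0.867 (0.664 to 1.13), and whether they are pieces of 1 transcript was not tested.

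The glyoxalases, which use glutathione to remove methylglyoxal, held 0 of 11 members past 2-fold. The most abundant, Unigene35206 of the third range, had 621 RPKM in the mutant and 622 RPKM in the wild type (1559 and 1553 reads). Unigene27380 of the second range had 514 RPKM in the mutant and 610 RPKM in the wild type, 1.19-fold lower (1.11 to 1.26), and Unigene27799, also of the second range, had 62.4 RPKM in the mutant and 75.4 RPKM in the wild type, 1.21-fold lower (1.05 to 1.40). Both of these were lower, while the median log2 ratio of all unigenes of the second range was positive. The median level of that range was 3.69 RPKM in the mutant, below that of both. The hydroxyacylglutathione hydrolases, the second step, were mixed: Unigene17554 had 88.7 RPKM in the mutant and 102 RPKM in the wild type, 1.15-fold lower (1.05 to 1.25), and Unigene6657 had 88.5 RPKM in the mutant and 78.5 RPKM in the wild type, 1.13-fold higher (1.03 to 1.23). Lactoylglutathione lyases, the first step, summed to 9610 reads in the mutant and 10275 in the wild type over 8 unigenes (fold 0.931, 0.906 to 0.958).

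Glutathione S-transferases, which attach glutathione to toxic and reactive compounds, were the largest family, with 38 members. Their median log2 ratio was 0.07, 22 were positive and 16 negative (19 and 19 with the trimmed mean scaling), and 1 was 2-fold higher and 2 lower. In all they took 16091 reads in the mutant and 15699 in the wild type. The largest difference with at least 50 reads was in Unigene14233, most similar to 103-1A of Arabidopsis, with 6.07 RPKM in the mutant and 15.2 RPKM in the wild type (54 and 135 reads), 2.51-fold lower (1.82 to 3.51). A second unigene with this hit, Unigene25110, lay in the second range and was lower in the mutant, with 40.7 RPKM in that library and 74.9 RPKM in the wild type (83 and 152 reads). Over the 3 unigenes with that hit the sum was 142 reads in the mutant and 289 in the wild type, 2.04-fold lower (1.67 to 2.52).

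The member past 2-fold higher was Unigene23573 of the second range, most similar to ERD13 of Arabidopsis, a protein named for early induction by dehydration, with 8.18 RPKM in the mutant and 3.03 RPKM in the wild type (38 and 14 reads), 2.70-fold higher (1.43 to 5.40). The 5 unigenes with that hit summed to 2463 reads in the mutant and 2479 in the wild type, a fold of 0.989 (0.935 to 1.05). The soybean transferase also known as heat shock protein 26A was the most frequent best hit, with 11 unigenes. They summed to 2571 reads in the mutant and 2239 in the wild type (fold 1.14, 1.08 to 1.21), and 8 of the 11 had positive log2 ratios, as did 53.8% of all kept unigenes. The intervals of 5 lay above 1 and none was 2-fold higher. Within that group Unigene4050 went the other way, with 20.7 RPKM in the mutant and 40.4 RPKM in the wild type (123 and 239 reads), 1.95-fold lower (1.56 to 2.45). Unigene15495, a zeta-class transferase, the class that acts in tyrosine breakdown, had 124 RPKM in the mutant and 166 RPKM in the wild type, 1.34-fold lower (1.20 to 1.48). Unigene15947, with a tobacco best hit, had 88.0 RPKM in the mutant and 60.1 RPKM in the wild type, 1.46-fold higher (1.31 to 1.63). The last 3 unigenes were picked after their values were seen.

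The glutathione peroxidases, which in plants reduce lipid peroxides, were led by Unigene27359 of the second range, most similar to a phospholipid hydroperoxide enzyme of sweet orange. It had 1058 RPKM in the mutant and 1339 RPKM in the wild type (3580 and 4509 reads), 1.26-fold lower (1.21 to 1.32). Unigenes of its number range were mostly higher in the mutant, but their median level was 3.69 RPKM in the mutant and 1.815 RPKM in the wild type. The 225 kept unigenes with a mean of at least 500 RPKM had a median log2 ratio of -0.13. A chloroplast form, Unigene8304, had 311 RPKM in the mutant and 362 RPKM in the wild type. Unigene25739 of the second range, with the sweet orange hit, had 55 reads in the mutant and 44 in the wild type. Unigene35725 of the third range, with 6 and 16, was the 1 member of 7 past 2-fold. It was 2.68-fold lower with an interval that includes 1 (0.995 to 8.36). Of all kept unigenes 5.31% were 2-fold lower, and 23% of those in the third range. The family summed to 7864 reads in the mutant and 9329 in the wild type, a fold of 0.839 (0.815 to 0.865), the lowest summed fold of the 15 families.

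The 6 peroxiredoxin unigenes, peroxidases with a reactive cysteine, showed 0 past 2-fold. Cytosolic peroxiredoxin-2B, Unigene17136, was highest, with 686 RPKM in the mutant and 648 RPKM in the wild type (5764 and 5424 reads), 1.06-fold higher (1.02 to 1.10). Of the organelle forms, 4 of 5 had values on the other side. Chloroplast Unigene7014 (peroxiredoxin-2E-1) had 185 RPKM in the mutant and 222 RPKM in the wild type, 1.20-fold lower (1.11 to 1.31), and mitochondrial Unigene15492 (peroxiredoxin-2F) had 80.9 RPKM in the mutant and 97.1 RPKM in the wild type, 1.20-fold lower (1.09 to 1.32). The abundant 2-Cys form of chloroplasts, Unigene16148, had 630 RPKM in the mutant and 670 RPKM in the wild type.

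Thioredoxins and their reductases form the electron supply of these enzymes. Ferredoxin-thioredoxin reductase passes photosynthetic electrons to chloroplast thioredoxins. Its variable chain, Unigene4810, had 359 RPKM in the mutant and 408 RPKM in the wild type (2622 and 2967 reads), 1.14-fold lower (1.08 to 1.20), and its catalytic chain, Unigene17252, had 285 RPKM in the mutant and 308 RPKM in the wild type, 1.08-fold lower (1.03 to 1.14). Thioredoxins F, M and X, which receive these electrons, summed to 10138 reads in the mutant and 10600 in the wild type over 6 unigenes (fold 0.952, 0.927 to 0.979).

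The H-type thioredoxins, which work outside chloroplasts, summed to 9352 reads in the mutant and 8386 in the wild type over 8 unigenes (fold 1.11, 1.08 to 1.14). Unigene15618 was the most abundant of all 22 thioredoxin unigenes, with 666 RPKM in the mutant and 651 RPKM in the wild type, and its interval includes 1 (0.968 to 1.08). Unigene5285, most similar to H-type 2 of Arabidopsis, had 287 RPKM in the mutant and 207 RPKM in the wild type, and Unigene16874, with the same hit, had 218 RPKM in the mutant and 171 RPKM in the wild type. Unigene7994, most similar to an H-type of castor bean, went the other way, with 76.1 RPKM in the mutant and 99.7 RPKM in the wild type, 1.31-fold lower (1.19 to 1.44). The largest difference of the family was in Unigene8624, thioredoxin-like 3 of chloroplasts, with 27.3 RPKM in the mutant and 15.4 RPKM in the wild type (356 and 200 reads), 1.77-fold higher (1.49 to 2.12). Unigene4308, most similar to the Arabidopsis homolog of thioredoxin domain-containing protein 9, had 47.2 RPKM in the mutant and 33.7 RPKM in the wild type, 1.40-fold higher (1.20 to 1.63). Of the 22, 12 had positive and 10 negative log2 ratios (8 and 14 with the trimmed mean scaling), none passed 2-fold, and the family's sum was 24533 reads in the mutant and 23290 in the wild type.

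Glutaredoxins, which use glutathione to reduce disulfides, were the family with the widest spread, with log2 ratios between -1.58 and 1.49 and 3 of 21 members at least 2-fold higher and 2 lower, against 8.61% and 5.31% of all kept unigenes. Yet their summed reads were 12213 in the mutant and 12253 in the wild type. All 5 unigenes past 2-fold belong to the 7 sorted by the best hit's name into the CC type, the plant-specific class of Arabidopsis ROXY proteins. This grouping was made after the values were seen, so that the count is a description only. Of the 5, 4 had a mean under 10 RPKM, where 22.7% of all kept unigenes were past 2-fold. Unigene7673, most similar to glutaredoxin-S2, had 65.3 RPKM in the mutant and 22.6 RPKM in the wild type (482 and 166 reads), 2.89-fold higher (2.42 to 3.47). Unigene15096, most similar to glutaredoxin-C9, an Arabidopsis protein that binds TGA transcription factors, had 7.53 RPKM in the mutant and 2.71 RPKM in the wild type (67 and 24 reads), 2.78-fold higher (1.72 to 4.63). The other unigene with a C9 hit, Unigene1121, had 25 reads in the mutant and 35 in the wild type.

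Others of the CC type were lower. Unigene2181, most similar to glutaredoxin-S9, had 4.81 RPKM in the mutant and 13.7 RPKM in the wild type (30 and 85 reads), 2.85-fold lower (1.86 to 4.47). Unigene36320 of the third range, most similar to glutaredoxin-C6, had 3.81 RPKM in the mutant and 13.4 RPKM in the wild type (20 and 70 reads), 3.51-fold lower (2.11 to 6.10), the largest negative log2 ratio of all members. Unigene16619, most similar to glutaredoxin-C11, had 22.3 RPKM in the mutant and 42.6 RPKM in the wild type (137 and 260 reads), 1.91-fold lower (1.54 to 2.36), just short of the threshold. The fifth past 2-fold, Unigene25113 of the second range, rests on 5 reads in the mutant and 1 in the wild type. The CC-type unigenes thus lay on both sides, and their sum was 766 reads in the mutant and 641 in the wild type.

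No glutaredoxin unigene outside those sorted into the CC type passed 2-fold. The 6 unigenes of the CGFS type (S14 to S17), which are known for handling iron-sulfur clusters, had log2 ratios between -0.19 and 0.31 and summed to 5163 reads in the mutant and 5094 in the wild type. The remaining 8 summed to 6284 reads in the mutant and 6518 in the wild type. Among these, Unigene5469 was the most abundant glutaredoxin, with 837 RPKM in the mutant and 853 RPKM in the wild type (2538 and 2574 reads). Unigene4081, most similar to glutaredoxin-C1 of rice, had 15.0 RPKM in the mutant and 8.71 RPKM in the wild type, 1.72-fold higher (1.21 to 2.47), the widest difference of these 8.

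**Figure D4:**
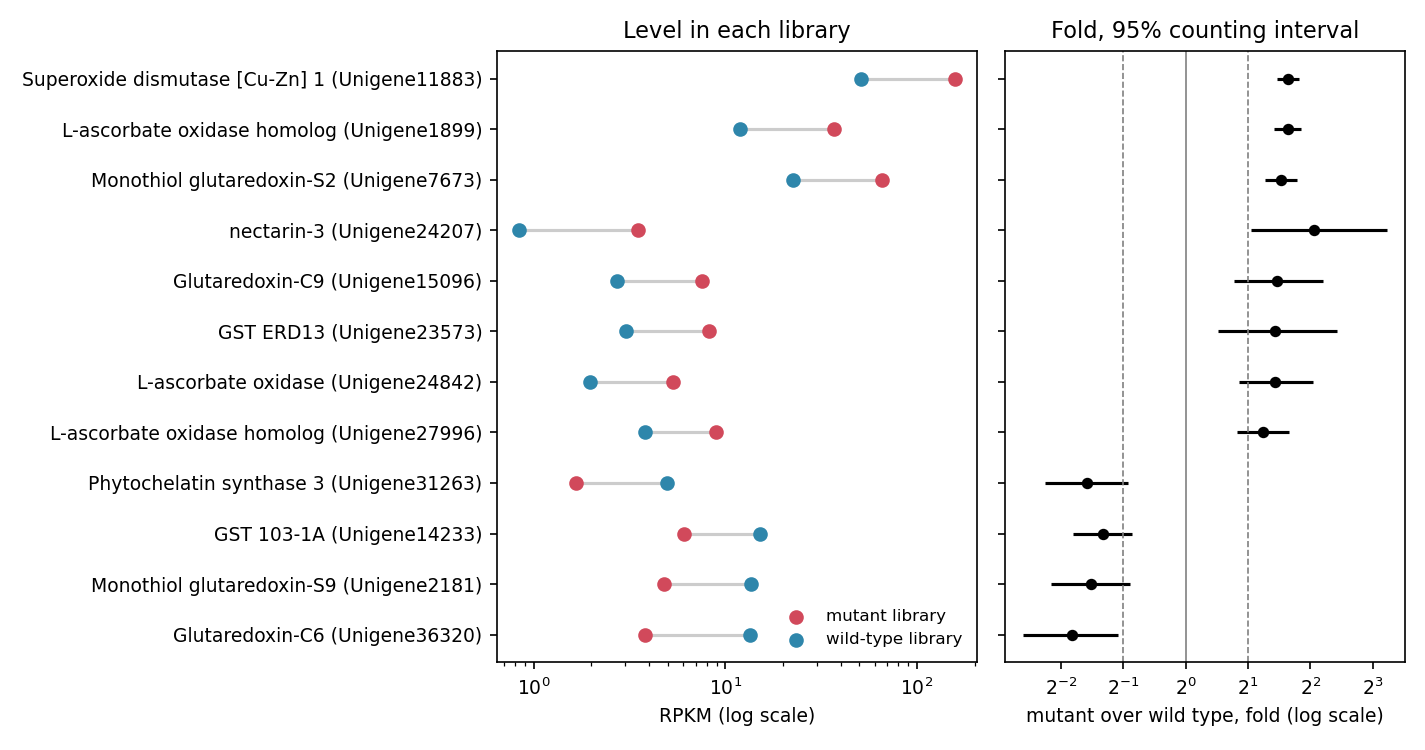
The 12 redox unigenes past 2-fold with at least 50 reads over both libraries are shown with their RPKM in the mutant and wild-type libraries on a log axis (left) and the fold of mutant over wild type from raw reads with its 95% counting interval on a log axis (right, dashed lines at 2-fold). The 8 higher ones are led by a Cu-Zn superoxide dismutase at 158 RPKM in the mutant and 50.8 RPKM in the wild type, and 4 are lower in the mutant.

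Grouped by the compartment in the best hit's name, all 4 compartments had slightly lower summed reads in the mutant. Of the 36 members named chloroplastic, 14 had a positive and 22 a negative log2 ratio (5 and 31 with the trimmed mean scaling), 0 passed 2-fold, and they summed to 45322 reads in the mutant and 47450 in the wild type (fold 0.951, 0.939 to 0.963). The 44 mesophyll markers, which stand for green tissue, summed to 0.940-fold (0.932 to 0.949) in the same libraries, and the part of green tissue in the chloroplast values was not tested. The 7 members named mitochondrial summed to 14091 reads in the mutant and 14807 in the wild type (fold 0.948, 0.926 to 0.970). The 4 named cytosolic summed to 7068 and 7431 reads (fold 0.947, 0.917 to 0.979) and the 4 named peroxisomal to 3527 and 4041 reads (fold 0.869, 0.831 to 0.910), mutant before wild type. The 4 named peroxisomal all have ascorbate peroxidase 3 as best hit, and Unigene7848 alone had 2446 and 2987 reads. Of the cytosolic ones, ascorbate peroxidase Unigene7276 had 4067 and 4603 reads, while both glutathione reductases had higher values in the mutant. Names with the word cytoplasmic were not counted as cytosolic.

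Pathways that feed the redox enzymes were read from lists by protein name. The list for ascorbate synthesis had 11 kept unigenes, of which 2 were 2-fold higher and 0 lower, and its median log2 ratio was 0.15. The 2 were Unigene19299 (6 reads in the mutant, 0 in the wild type) and Unigene27310 (13 and 3), both from the second range, where 29.3% of all unigenes were 2-fold higher, against 8.61% overall. It summed to 11611 reads in the mutant and 8196 in the wild type (fold 1.41, 1.37 to 1.45). Most of that difference was in Unigene17039, an inositol oxygenase, the enzyme that opens myo-inositol to glucuronate on the way to cell wall sugars and on a proposed side route to ascorbate. It had 932 RPKM in the mutant and 513 RPKM in the wild type (7053 and 3869 reads), 1.82-fold higher (1.75 to 1.89). GDP-mannose epimerase, on the main route, had 2469 reads in the mutant and 2457 in the wild type over 5 unigenes, and the last enzyme, galactonolactone dehydrogenase, had 777 and 772 in the same order.

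Sulfur and glutathione supply had 21 kept unigenes, with a median of 0.02 and 15629 reads in the mutant against 15773 in the wild type. Past 2-fold, 1 was higher and 0 lower, where 8.61% of all kept unigenes were higher and 5.31% lower. The 1 was Unigene27791 of the second range (32 reads in the mutant, 10 in the wild type), where 29.3% of all unigenes were 2-fold higher. Its most abundant member, the cysteine synthase Unigene17102, had 247 RPKM in the mutant and 264 RPKM in the wild type, and the one with the largest difference at 50 or more reads, the cysteine synthase Unigene7080, had 83.5 RPKM in the mutant and 60.8 RPKM in the wild type, 1.37-fold higher (1.19 to 1.58). NADPH supply had 17, with 0 past 2-fold, a median of 0.13, and 19154 reads in the mutant against 17316 in the wild type (fold 1.10, 1.08 to 1.12). There the malic enzyme Unigene14662, which makes NADPH from malate, had 511 RPKM in the mutant and 366 RPKM in the wild type, 1.40-fold higher (1.31 to 1.49). Glucose-6-phosphate dehydrogenase, which starts the NADPH-making pentose phosphate route, went the other way, with 4697 reads in the mutant and 5036 in the wild type over 8 unigenes. Other dithiol enzymes and electron sinks had 13, with 0 past 2-fold and a median of 0.02. Among them the mitochondrial alternative oxidase Unigene8540, which takes electrons past the cytochrome chain, had 47.9 RPKM in the mutant and 70.5 RPKM in the wild type (590 and 865 reads), 1.47-fold lower (1.32 to 1.64), and the most abundant, the protein disulfide-isomerase Unigene16069, had 555 RPKM in the mutant and 565 RPKM in the wild type.

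A further 23 unigenes carried the same redox words with a best hit outside flowering plants, in animals, fungi, bacteria, a slime mould or spruce, and are not members. They summed to 14209 reads in the mutant and 14038 in the wild type (fold 1.01, 0.985 to 1.03), with a median log2 ratio of 0.0071 and 0 past 2-fold. Best hits were spread over 28 species among the members, 72 of them from Arabidopsis and 3 from Citrus, and 88 members shared a best hit with another member, so several unigenes can stand for 1 gene.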

How the data were processed

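Poly(A) RNA of buds was sequenced from 1 mutant and 1 wild-type library, grouped by the source names in the labels. Per the file headers, the authors deposited 1 table with raw read counts per unigene and library, the unigene length, the RPKM and the best database hits with their E-values. The library totals in the header equalled the column sums of the deposited counts, 10.0371 M reads in the mutant and 9.99503 M in the wild type. The RPKM deposited by the authors were recomputed from counts, lengths and totals, and 100% matched within 1e-04. The assembler, aligner, counter, strand setting and build used by the authors were not given in the sources used here, so reads shared by near-identical copies or by antisense partners are uncertain. Length and E-value are deposited columns of another kind (other).

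Names came from the Swiss-Prot hits. Whether a species is a flowering plant was decided from a hand-written list of genera. Members were put into families by name, the first match deciding. The value tested for size was log2((mutant RPKM + 1) / (wild-type RPKM + 1)) over unigenes with at least 1 RPKM in at least 1 library, and past 2-fold means a log2 ratio of 1 or more in size. This scale understates differences of unigenes with few reads. Folds came from raw counts and totals with exact 95% Clopper-Pearson intervals. No kept member had 0 reads in a library, and no fold is given for a unigene that did. No count model was fitted with 1 library per group.

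Named in each family were the member of highest mean RPKM, up to 2 with the largest log2 ratio among those with at least 50 reads, every member with at least 50 reads past 2-fold, and any with 0 reads in 1 library and at least 8 in the other, of which there were none. Others were named after their values were seen, for contrast within a family or a shared hit. The members and lists were chosen with earlier results of these data known. The ranges of unigene numbers end where the length ratio over windows of 200 unigenes was at least 3, and they were joined to 3 ranges after the ratios had been seen. Steps were tested on simulated data. Python 3.11.15, pandas 2.3.3, NumPy 2.4.6, SciPy 1.17.1 and Matplotlib 3.10.9 were used. Alternatives in pseudocount, filters, scaling, threshold and handling of shared hits are given in the closing section. No sequence of a member was used here.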

Additional observations from a re-analysis of the deposited data

How the results depend on the processing

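No paired analysis was possible because each group holds 1 library, and no replicate could be left out. Direction held for the 44 named members under both other pseudocounts. Under each of the 2 other scalings it held for all but 2, Unigene15618 (a thioredoxin) and Unigene17583 (S-formylglutathione hydrolase), whose log2 ratios of 0.03 and 0.0086 became negative. The count of 0 for a family was the same unless given here. The counts that moved by more than 1.5 times, higher before lower, were as follows. No value past 2-fold changed direction, while medians near 0 did, as given at the end. The cause was not tested beyond what each alternative changes by its construction.

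With a 4-fold threshold, all members gave 0 and 0, as did ascorbate oxidase, glutaredoxin, glutathione S-transferase, glutathione peroxidase, monodehydroascorbate reductase, other glutathione enzymes and superoxide dismutase. Calling by a counting interval that excludes 1 gave 41 and 40 of all members, 11 and 6 glutathione S-transferases, 7 and 3 thioredoxins, 3 and 5 superoxide dismutases, 1 and 5 glyoxalases, 1 and 3 peroxiredoxins, 2 and 2 respiratory burst oxidases, 3 monodehydroascorbate reductases higher, 2 other glutathione enzymes higher and 1 glutathione reductase higher. It also gave 5 glutaredoxins, 3 catalases, 3 ascorbate peroxidases, 2 glutathione peroxidases and 2 thioredoxin reductases lower.

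A pseudocount of 5 left 3 and 1 of all members, 1 ascorbate oxidase higher, 1 and 1 glutaredoxins, and 0 in glutathione S-transferase, glutathione peroxidase, monodehydroascorbate reductase and other glutathione enzymes. A pseudocount of 0.1 gave an ascorbate oxidase median of 1.39 and 4 glutathione S-transferases higher. A minimum of 5 RPKM left 7 members higher, 3 of them ascorbate oxidases, with 1 glutathione S-transferase lower, 0 monodehydroascorbate reductases higher and 0 other glutathione enzymes lower. At least 100 reads left 5 and 3 members, 3 ascorbate oxidases higher, 1 and 1 glutaredoxins, 0 and 1 glutathione S-transferases, and 0 in glutathione peroxidase and monodehydroascorbate reductase. At least 500 bases left 7 members higher, 3 of them ascorbate oxidases, 0 and 1 glutathione S-transferases and 0 glutathione peroxidases. An E-value of at most 1e-20 left 1 glutathione S-transferase and 0 glutathione peroxidases lower. The longest unigene per Swiss-Prot entry left 7 and 3 members, 2 ascorbate oxidases higher, 0 and 1 glutathione S-transferases, 0 glutathione peroxidases and 0 other glutathione enzymes lower.

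Centring on the median of all unigenes put the members' median at -0.042, and trimmed mean scaling at -0.062; under both, the medians of glutathione reductase, thioredoxin and other glutathione enzymes also became negative. Alternatives chosen after seeing the data were the first range of unigene numbers alone (4 and 2 members, 1 ascorbate oxidase higher, 1 glutaredoxin lower, 0 and 1 glutathione S-transferases, and 0 in glutathione peroxidase, monodehydroascorbate reductase and other glutathione enzymes), RPKM summed per entry (5 and 2 of 113 entries, 1 ascorbate oxidase higher, 0 in glutathione S-transferase, glutathione peroxidase and other glutathione enzymes), and leaving out the ascorbate oxidase homolog and nectarin-3 hits (6 members higher, 1 ascorbate oxidase and 0 monodehydroascorbate reductases). Of the main results checked, 642 values stayed within their limits and 94 moved. Among the other results checked, 162 values stayed and 14 moved. Depth limits the 15 members under 50 reads, whose intervals are wide.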
